A study of Mus musculus and Homo sapiens
Mus musculus with 12 samples.

Results

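D1 medium spiny neurons are the inhibitory projection neurons of the striatum that carry the dopamine receptor Drd1 and form the direct pathway of the basal ganglia. Here 459 of 11198 mouse brain nuclei were taken as D1 nuclei from their own counts. A D1 nucleus had at least 4 unique fragment identifiers (UFIs) of Rgs9 per 10000. It also had at least 2 UFIs of Drd1, Tac1 and Eya1 together, and this sum was at least 2 times that of Drd2, Adora2a and Penk. A UFI counts an original cDNA fragment, as random reverse transcription (RT) primers mark a transcript at several places. The nuclei were compared with 9852 Rgs9-low nuclei (under 4 Rgs9 UFIs per 10000) and with 553 D2 nuclei, chosen by the mirrored rule. The other 334 Rgs9-high nuclei met neither rule.

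The brains came from wild-type male C57BL/6J mice of 6 to 8 weeks, and nuclei were profiled by snHH-seq, a droplet method for total nuclear RNA. Of the 7 libraries, 4 came from frozen tissue (2 with RT primers without a preindex and 2 with preindexed primers) and 3 from fresh tissue (2 without and 1 with the preindex). The preindex is a first cell barcode carried by the RT primer. Groups were taken from the sample titles, although the treatment label of 4 libraries names the other primer. Cell barcodes had 40 bases where the title names the preindex (3 libraries) and 30 bases in the other 4. The labels do not tie the libraries to separate animals, so p-values measure the spread between libraries, which may be technical. Libraries held 8605214 to 42439731 UFIs, and the median D1 nucleus held 13908 UFIs and 3512 genes.

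In the direct pathway, dopamine acts on Drd1, which through the olfactory G protein Gnal and adenylate cyclase Adcy5 raises cyclic AMP and activates protein kinase A. The indirect pathway neurons carry Drd2 and the adenosine receptor Adora2a instead, and both kinds release GABA. Neurons of both pathways are spread over the matrix and over small islands named striosomes, which are known for the mu opioid receptor Oprm1.

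The libraries differed in what else they held. Cerebellar granule genes (Cbln3, Fat2, Gabra6) summed to 133, 146, 55.1 and 68.7 CPM (UFIs scaled to a total of 1000000) in the Rgs9-low nuclei of the 4 libraries without the preindex, and to at most 1.1 CPM in the 3 preindexed libraries. Kidney tubule genes summed to 873 and 808 CPM in the Rgs9-low nuclei of the frozen preindexed libraries and to at most 14.8 CPM elsewhere. Of the Rgs9-low nuclei, 489 carried at least 10 UFIs of kidney or liver genes, against 0 of 459 D1 nuclei. The pooled upper limit of 0.654% for D1 nuclei covers counting error only. It is not a limit for each library, since the Rgs9-low nuclei of the 4 libraries without the preindex included no such nucleus. Tissue makeup and primer therefore cannot be told apart in these libraries. Between libraries, 32 cell barcodes were shared, and 3 D1 nuclei carried one of them. Doublets were not called.

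The genes of the rule describe the choice of nuclei and were not tested. Among the 459 D1 nuclei, 418 (91.1%) had a UFI of Drd1, 270 (58.8%) of Tac1, the precursor of substance P, and 149 (32.5%) of Eya1, a transcriptional coactivator. All 3 genes were seen in 54 nuclei, and 118 nuclei sat at the minimum of 2 UFIs. No UFI of Drd2, Adora2a or Penk was seen in 405 (88.2%). Drd1 lies on chromosome 13, positions 54051183 to 54055705 of GRCm38, and stood at 197 and 167, 175 and 150, 156 and 140, and 146 CPM in D1 nuclei. These values run in the order used throughout, frozen without preindex 1 and 2, frozen preindexed 1 and 2, fresh without preindex 1 and 2, and fresh preindexed. In Rgs9-low nuclei Drd1 stood between 3.39 and 5.03 CPM.

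Rgs9, a regulator of G protein signalling of striatal neurons, ranged in D1 nuclei from 4.04 to 32.3 UFIs per 10000 with a median of 12.9. Just inside the limit, 23 nuclei had 4.04 to 4.97 per 10000, and just outside it 16 nuclei that met the other limits had 3.01 to 3.86. A further 149 Rgs9-high nuclei had a single UFI of Drd1, Tac1 or Eya1 and none of the D2 genes, and 133 had no UFI of any of the 6 genes.

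The label was checked against genes the rule did not use. With each nucleus thinned to 5000 UFIs, Adcy5 was seen in 99.6% of D1, 99.6% of D2 and 45.8% of Rgs9-low nuclei. Rarb, the retinoic acid receptor beta, was seen in 92.1%, 88.5% and 13.1%, and Ppp1r1b, which encodes the phosphatase inhibitor DARPP-32, in 48.4%, 48.0% and 2.55%. Pdyn, the precursor of dynorphin, was seen in 17.9% of D1, 0.727% of D2 and 1.14% of Rgs9-low nuclei. Isl1, a transcription factor of direct pathway neurons, was seen in 8.32%, 0.182% and 0.866%. Slc17a7, the vesicular glutamate transporter of cortical excitatory neurons, was seen in 5.91% of D1 and 33.8% of Rgs9-low nuclei. Adcy5 and Rarb were given with the label as its markers, so they are not a separate check of it. The other genes named here went with the label. Arpp21, a gene shared by medium spiny neurons and given below, was lower in D1 than in Rgs9-low nuclei.

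The promoters of the rule gene Tac1 and of Rarb and Isl1, which the rule did not use, are shown because these genes mark the nuclei, in GRCm38.p6 as given by RefSeq, with matches in capitals. The Rarb window at chr14:16575477-16575576 (minus strand) holds the half-sites GGTTCA and AGTTCA as a direct repeat with 5 bases between, a form bound by retinoic acid receptors, 53 to 37 bases before the start. This RefSeq start lies inside the longer gene model on chromosome 14, positions 16430839 to 16819156, and most of the Tac1 window likewise lies inside the gene model on chromosome 6, positions 7554879 to 7565834. On either strand, this repeat was found in 0.00609% of 32851 promoter windows of 250 bases, which are 2 windows (Rarb and Gm52524). The Tac1 window at chr6:7554861-7555060 (plus strand) and the Isl1 window at chr13:116309689-116309788 (minus strand) hold matches to TGACG, the core of the cyclic AMP response element. These matches are printed as TGACG or as its reverse complement CGTCA. That core was found in 17.8% of the windows and the whole palindrome TGACGTCA, which contains it, in 1.55%. A match gives letters only, and binding was not measured.
Rarb: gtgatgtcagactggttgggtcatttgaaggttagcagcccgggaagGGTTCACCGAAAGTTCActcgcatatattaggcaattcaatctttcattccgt
Tac1: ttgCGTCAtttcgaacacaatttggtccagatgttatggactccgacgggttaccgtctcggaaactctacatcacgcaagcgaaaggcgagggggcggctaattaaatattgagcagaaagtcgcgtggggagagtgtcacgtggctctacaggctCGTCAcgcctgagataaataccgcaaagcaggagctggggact
Isl1: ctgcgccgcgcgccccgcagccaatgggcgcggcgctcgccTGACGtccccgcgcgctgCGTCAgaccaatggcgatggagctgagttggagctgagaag

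What set D1 nuclei apart from the rest of the brain was asked against the Rgs9-low nuclei. D1 nuclei were higher in the genes that medium spiny neurons of both pathways share. They were also higher in the dopamine to cyclic AMP cascade and in transcription factors of the striatal lineage. Listed genes of excitatory neurons and interneurons were mostly lower. Each library gave 1 sum of UFIs per gene and class of nuclei, and a gene was called at a Benjamini-Hochberg adjusted p under 0.05 by edgeR's quasi-likelihood test and over 2-fold. Of 12169 genes tested, 678 (5.57%) were higher and 1609 (13.2%) lower in D1 nuclei. The tested genes lie outside the rule but were counted in the nuclei that the rule chose. The calls therefore describe those nuclei and are not evidence apart from the choice.

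Of 20 genes shared by medium spiny neurons, 19 were higher in D1 nuclei, with a median log2 fold change of 3.21. Ppp1r1b stood at 153, 127, 150, 147, 139, 141 and 134 CPM in the D1 nuclei of the 7 libraries and at 5.54 ± 0.706 CPM (SD, n = 7) in Rgs9-low nuclei. The groups did not overlap, and the log2 fold change was 4.86 ± 0.10 (SE). Rarb stood at 754, 672, 748, 639, 665, 604 and 668 CPM in D1 nuclei against 37.4 ± 4.08 CPM, a log2 fold change of 4.34 ± 0.07. Scn4b, a sodium channel beta subunit, stood at 257 ± 25.8 against 15.1 ± 6.54 CPM. Rasd2, a striatal small G protein, stood at 80.6 ± 7.41 against 7.21 ± 1.13 CPM. Arpp21, a phosphoprotein regulated by cyclic AMP, was the exception at a log2 fold change of -0.28 (edgeR, adjusted p = 0.0013), short of 2-fold, and was lower in D1 nuclei in all 7 libraries.

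The dopamine receptor to cyclic AMP cascade had 15 of 23 tested genes higher and 2 lower, with a median log2 fold change of 1.49. Adcy5 (chromosome 16, 35154877 to 35305738) stood at 2322, 2316, 2635, 2619, 2968, 2603 and 2267 CPM in D1 nuclei against 166 ± 13 CPM. Gnal, the G protein alpha subunit that couples Drd1 to the cyclase, stood at 697 ± 55.7 against 106 ± 6.06 CPM, and Gng7, a gamma subunit that works with it, at 499 ± 70.1 against 41.9 ± 4.06 CPM. The phosphodiesterase Pde10a, which breaks down cyclic nucleotides, stood at 5840 ± 710 against 1222 ± 265 CPM.

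The 2 members that were lower are the more widely used counterparts. Gnas, the general stimulatory alpha subunit, stood at 10.2, 20.2, 13.3, 11.1, 14.8, 17.8 and 28.3 CPM in D1 nuclei and at 109 ± 9.62 CPM in Rgs9-low nuclei. Its highest D1 value lay below its lowest Rgs9-low value of 93.2 CPM, and the log2 fold change was -2.52 ± 0.15. Pde4d, a phosphodiesterase of many neurons, stood at 295 ± 117 against 1696 ± 128 CPM. Pde4b, of the same family, stood at 862 ± 120 against 932 ± 40.1 CPM and was not called (adjusted p = 0.772, edgeR's quasi-likelihood test).

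Of 20 listed transcription factors of the lateral ganglionic eminence and striatum, 14 were tested, and these were higher in D1 nuclei, with a median log2 fold change of 2.69. Dlx5, Dlx6, Ikzf1, Isl1 and Six3 would not have passed the filter on low counts in the Rgs9-low nuclei alone, so the count and the median are a description. Bcl11b, needed for medium spiny neuron differentiation, stood at 703 ± 87.1 against 139 ± 18.4 CPM, Foxp1 at 1724 ± 121 against 350 ± 34.9 CPM and Rxrg, a partner receptor of Rarb, at 83.5 ± 12.9 against 6.20 ± 0.982 CPM. Of the direct pathway genes, 6 of 8 were higher, a count under the same limit, since Slc35d3, Isl1, Chrm4 and Pdyn would not have passed the filter in the Rgs9-low nuclei alone. Sfxn1, a mitochondrial serine carrier, and the zinc finger gene Zfp521 had log2 fold changes of 0.47 and 0.74, under the 2-fold limit. Of 6 tested indirect pathway genes, Six3 and Gprin3 were higher, and Ptprm, Grik3 and Oprd1 were lower. Oprd1 did not pass the filter in D1 nuclei alone.

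Genes of transmitter handling and excitability were mixed. Those for GABA synthesis, storage and uptake were all higher, with Gad2 at 237 ± 19.6 against 85.4 ± 10.0 CPM and Slc32a1, the vesicular GABA transporter, at 39.9 ± 9.56 against 17.0 ± 6.42 CPM. Of 34 ion channel genes, 11 were higher and 7 lower. The inward rectifiers Kcnj2 and Kcnj4 stood at 34.2 ± 5.11 against 8.81 ± 2.02 CPM and at 75.0 ± 12.9 against 24.2 ± 4.34 CPM. The transient potassium channel gene Kcnd2 and its partner Kcnip2 had log2 fold changes of 1.37 and 2.36. By contrast Kcnc2, a channel of fast-spiking cells, stood at 107 ± 65.3 against 589 ± 79.5 CPM.

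Among receptors, 4 of 24 glutamate receptor genes were higher (Grik2, Grm3, Grm4 and Grm5) and 6 lower. Of the lower ones, Grin2d and Grm2 did not pass the filter on low counts in D1 nuclei alone, so that count is a description. Grm5, which couples to the Gq pathway, stood at 3127 ± 219 against 1474 ± 131 CPM. Of 12 GABA-A receptor subunits, Gabra4, Gabrg3 and Gabrd were higher, and Gabra3, Gabra5 and Gabrg1 lower. Gabrd, a subunit of receptors outside the synapse, stood at 37.4 ± 4.82 against 11.8 ± 2.48 CPM. Of 25 other G protein-coupled receptors, 11 were higher and 8 lower. Oprd1, Htr1a, Tacr3 and Sstr2, among the lower ones, did not pass this filter in D1 nuclei alone. Chrm4, among the higher ones, would not have passed it in Rgs9-low nuclei alone, so the counts are a description. The cannabinoid receptor Cnr1 stood at 330 ± 72.1 against 106 ± 18.6 CPM and the serotonin receptor Htr1b at 32.0 ± 5.35 against 5.93 ± 1.76 CPM, while the muscarinic receptor Chrm2 stood at 8.60 ± 4.62 against 120 ± 16.1 CPM.

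Genes of other cell types were lower or near the level of the other nuclei. Excitatory markers summed to 162 CPM in D1 against 624 CPM in Rgs9-low nuclei, with 5 of 6 lower, and 897 of their 1240 UFIs in D1 nuclei were of Cux2. Interneuron markers summed to 14.5 against 94.6 CPM, with 5 of 8 lower. Among these lower genes, Neurod6, Tbr1, Sst, Pvalb, Npy and Lhx6 did not pass the filter on low counts in D1 nuclei alone. Both counts are therefore a description. Astrocyte markers summed to 255 against 668 CPM, mainly Slc1a2 (1642 of 1954 UFIs), and oligodendrocyte markers to 163 against 305 CPM, mainly Mbp (794 of 1252). Oligodendrocyte precursor markers summed to 25.7 against 33.7 CPM. Of these, Vcan stood at 18.6 to 38.0 CPM in D1 nuclei and was not called. Pdgfra and Cspg4 were lower but did not pass the filter in D1 nuclei alone. Endothelial markers summed to 3.26 against 23.1 CPM. Microglial markers summed to 20.6 against 17.8 CPM, and 0 of 4 were called by edgeR or DESeq2, with 0 at an unadjusted p under 0.05 in edgeR, where 48.1% of all genes tested had one. No D1 UFI was found of the liver genes Alb and Cyp2e1. The largest decreases included kidney genes, with Lrp2 at 202 and 179 CPM in the Rgs9-low nuclei of the frozen preindexed libraries and at most 3.65 CPM in the others. The part of free RNA and doublets in these values was not tested.

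The Rgs9-low nuclei were also limited to those with at least 5 UFIs per 10000 of the neuronal genes Rbfox3, Snap25 and Syt1 together. This choice was made after the data were seen. Most nuclei passed, from 1607 of 1973 in frozen preindexed 1 to 1176 of 1204 in fresh without preindex 2. The limited set therefore holds largely the same nuclei. Against it, 681 genes were higher and 1367 lower in D1 nuclei. Shared medium spiny neuron genes were then higher for 19 of 20 (median log2 fold change 3.15). Ppp1r1b had a log2 fold change of 4.91 against those nuclei, and Ndrg1, high in the kidney-rich libraries, went from -4.40 to -1.32. Of 4 microglial markers, 1 was then higher in D1 nuclei (Csf1r, log2 fold change 1.05; edgeR, adjusted p = 0.015).

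D2 nuclei share the Rgs9 limit with D1 nuclei and differ by the rest of the rule. D1 nuclei were higher in the other direct pathway genes and lower in the other indirect pathway genes, while most genes shared by medium spiny neurons were not called. Of 7790 genes tested, 225 (2.89%) were higher and 192 (2.46%) lower in D1 nuclei at an adjusted p under 0.05 by edgeR's quasi-likelihood test with the library as a block. The rule itself set these 2 classes apart, so the calls describe the chosen nuclei. Of other cell type markers, the cerebellar gene Fat2 was lower in D1 nuclei (log2 fold change -1.32). Cux2, 1 of 3 excitatory genes tested, was higher in edgeR but not DESeq2. Oligodendrocyte, oligodendrocyte precursor and astrocyte markers were not called.

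**Figure D1:**
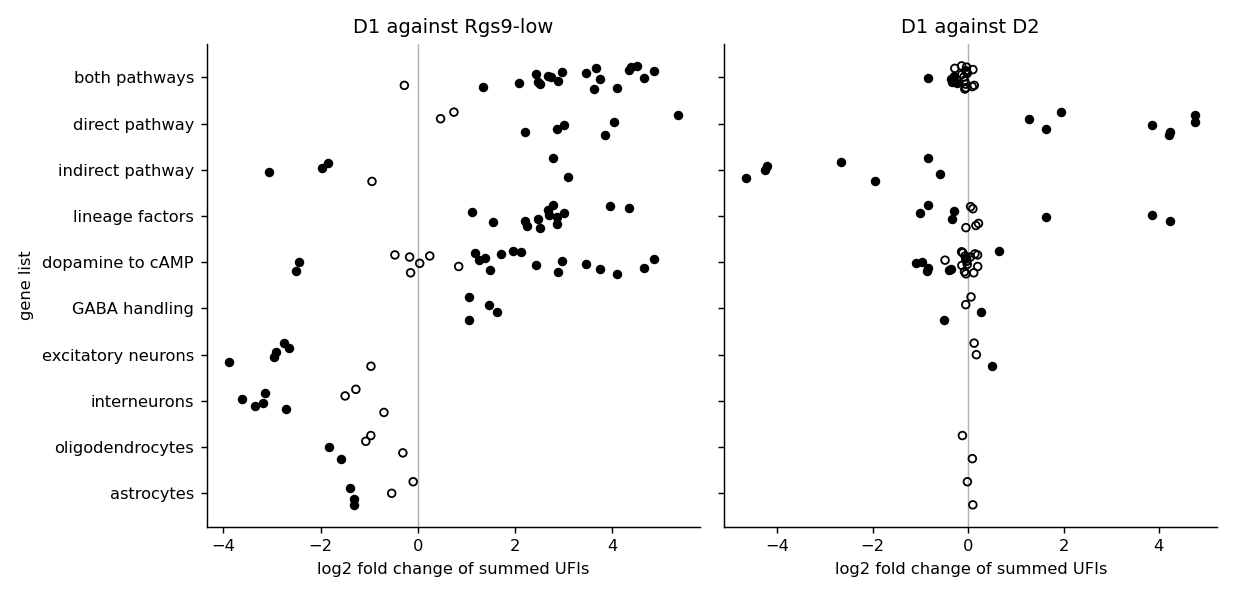
Log2 fold change of each tested gene (points) by gene list, for D1 against Rgs9-low nuclei (left) and D1 against D2 nuclei (right), over 7 libraries. Filled points passed the call used for that comparison and open points did not. Shared medium spiny neuron genes lie far to the right on the left side, at a median of 3.21, and near 0 on the right side, at a median of -0.07.

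All 8 direct pathway genes outside the rule were higher in D1 nuclei, with a median log2 fold change of 4.03. Isl1, Slc35d3, Pdyn and Chrm4 were near 0 in D2 nuclei and could pass the filter on low counts through the D1 sums alone, so the count and the median are a description and the folds of these genes are uncertain in size. Isl1 stood at 13.6, 11.7, 15.6, 18.4, 16, 12.1 and 13.3 CPM in D1 nuclei and at 0, 1.79, 0, 0, 0, 1.55 and 2.67 CPM in D2 nuclei, a log2 fold change of 3.85 ± 0.47 (edgeR, adjusted p = 1.01e-05). Every D1 value lay above every D2 value. Pdyn stood at 27.2, 43.5, 42.1, 54.0, 60.4, 54.2 and 31.0 CPM against 0, 1.79, 1.95, 2.21, 2.94, 0 and 1.34 CPM, a log2 fold change of 4.76 ± 0.28 (edgeR, adjusted p = 1.46e-10).

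Ebf1, a transcription factor of direct pathway differentiation, stood at 339, 270, 350, 363, 394, 252 and 351 CPM in D1 nuclei and at 22.0, 51.8, 11.0, 17.1, 20.6, 14.8 and 6.69 CPM in D2 nuclei. Chrm4, an inhibitory muscarinic receptor, stood at 28.8 ± 3.83 against 1.42 ± 0.916 CPM, and Slc35d3, an orphan sugar carrier, at 22.8 ± 5.98 against 0.591 ± 0.634 CPM. Foxp2, a transcription factor, was on in both types, at 899 ± 122 against 289 ± 82.4 CPM. Sfxn1 stood at 38.6 ± 7.01 against 16.2 ± 6.90 CPM. D1 and D2 values of all 8 genes lay apart in the 7 libraries. This count is a description too, since Isl1, Slc35d3, Pdyn and Chrm4 could pass the filter through the D1 sums alone. Of all genes tested, 0.86% lay apart in this direction.

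All 7 tested indirect pathway genes were lower in D1 nuclei, with a median log2 fold change of -2.67. Gpr6 and Oprd1 were near 0 in D1 nuclei and could pass the filter through the D2 sums alone, so this count and median are a description too. Oprd1, the delta opioid receptor, stood at 3.82 ± 2.08 against 78.6 ± 10.3 CPM, and Grik3, a kainate receptor subunit, at 41.8 ± 24.7 against 799 ± 81.5 CPM. Ptprm, a receptor phosphatase, stood at 103 ± 18 against 629 ± 117 CPM, and Adk, adenosine kinase, at 96.0 ± 20.9 against 357 ± 89.3 CPM. Gpr6, an orphan receptor, stood at 1.95 ± 3.69 against 29.3 ± 6.20 CPM, and its highest D1 value, 10.2 CPM, was in frozen without preindex 1, the library with the fewest D1 nuclei (24). The smallest differences of the list were those of Six3, a transcription factor (log2 fold change -0.84), and Gprin3 (-0.58). None of the 7 overlapped between the types, a description under the same limit for Gpr6 and Oprd1. Of all genes tested, 0.68% lay apart in this direction.

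**Figure D2:**
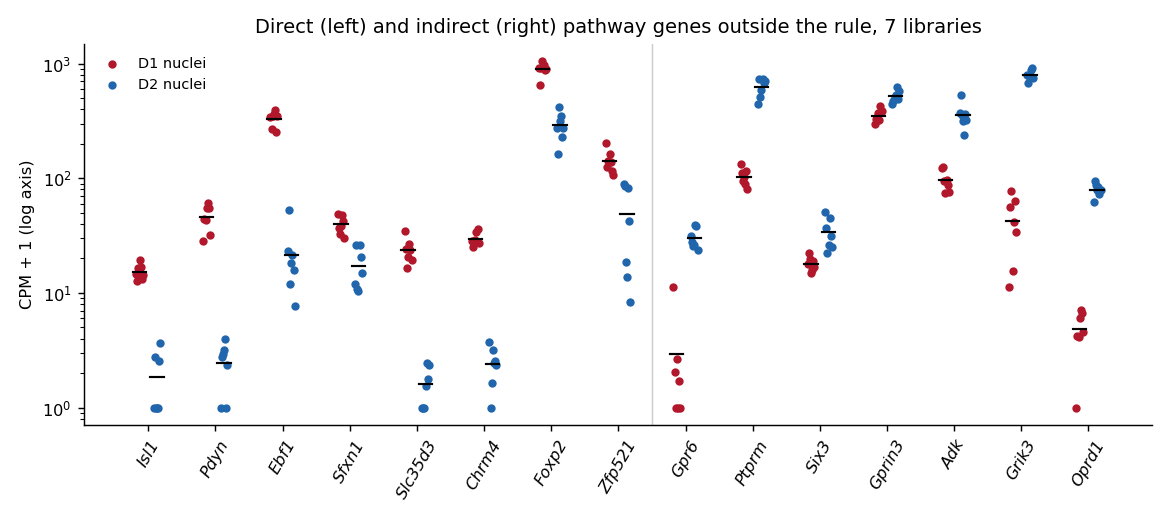
CPM plus 1 on a log axis for direct pathway genes (left) and indirect pathway genes (right) in D1 nuclei (red) and D2 nuclei (blue), a point for each of 7 libraries and a bar at the mean. Isl1, Pdyn and Ebf1 sit higher in D1 nuclei and Oprd1, Grik3 and Ptprm higher in D2 nuclei, in every library.

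Other genes outside the pathway lists did not overlap between the types either. The adhesion gene Cntnap3 stood at 145 ± 36.9 CPM in D1 against 7.63 ± 2.57 CPM in D2 nuclei. It would not have passed the filter on low counts in D2 nuclei alone, so its lack of overlap is a description. Lingo2, a leucine-rich repeat gene of neurons, stood at 2245 ± 231 against 324 ± 216 CPM. Sntg2, a syntrophin, stood at 286 ± 51.1 against 30.0 ± 22.9 CPM and Gfra1, a coreceptor of the growth factor GDNF, at 113 ± 45.1 against 18.2 ± 11.7 CPM. In the other direction, the netrin receptor Unc5d stood at 124 ± 47.1 against 695 ± 96.3 CPM, Nell1 at 109 ± 44.4 against 476 ± 26.4 CPM and the muscarinic receptor Chrm3 at 92.5 ± 28.5 against 411 ± 104 CPM. These genes were picked for the same sign in all 7 libraries, so that agreement follows from the choice.

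Of the 20 shared medium spiny neuron genes, 5 were lower in D1 nuclei, among them Foxp1, Gng7, Meis2 and Dgkb, and 15 were not called. Foxp1 and Gng7 each had a log2 fold change of -0.35. Ppp1r1b, Adcy5 and Rarb had log2 fold changes of -0.05, -0.05 and 0.10 (edgeR, adjusted p = 0.924, 0.867 and 0.672). In the cascade, 1 of 23 genes was higher, Rps6ka5, a kinase of nuclear signalling, at 370 ± 34 against 231 ± 10.8 CPM, and 6 were lower. Pde4b was among the lower ones, at 862 ± 120 against 1825 ± 282 CPM.

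The 2 GABA synthesis enzymes moved apart in edgeR. Gad1 stood at 149 ± 9.29 CPM in D1 against 208 ± 29.7 CPM in D2 nuclei, lower in 7 of 7 libraries (log2 fold change -0.50; edgeR, adjusted p = 0.001). Gad2 stood at 237 ± 19.6 against 194 ± 27.0 CPM, higher in 7 of 7 libraries, with an adjusted p of 0.0491 in edgeR that sat close to the threshold. Of the 4 genes of GABA synthesis, storage and uptake, edgeR called these 2 and DESeq2 only 1.

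Among receptors, Drd3, a D2-like dopamine receptor, stood at 44.0 ± 18.7 CPM in D1 against 16.8 ± 5.28 CPM in D2 nuclei, and the orphan receptor Gpr139 at 49.9 ± 16.3 against 9.34 ± 9.03 CPM. The serotonin receptor Htr2c stood at 170 ± 37.2 against 305 ± 41.6 CPM. Of 8 tested genes known of eccentric medium spiny neurons and the islands of Calleja, 6 were higher in D1 nuclei (Otof, Casz1, Col11a1, Tshz1, Adarb2 and Drd3) and Htr7 was lower. These are 7 calls by edgeR, where DESeq2 called 5 of the 8. Gpr139, Casz1 and Col11a1 would not have passed the filter in D2 nuclei alone, nor Htr7 in D1 nuclei. Adarb2, an RNA editing enzyme family member, stood at 278, 964, 367, 530, 483, 465 and 446 CPM in D1 nuclei, highest in frozen without preindex 2, against 179 ± 106 CPM.

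D1 nuclei were not uniform. To see how they varied, they were split by the summed level of the striosome genes Oprm1, Kremen1 and Sema5b, and the nuclei at 3 or more per 10000 (96 nuclei, 20.9%) were compared with those under 1 per 10000 (250 nuclei, 54.5%). These classes are ranges of a level, not types, and 113 nuclei lay between them. Median depth was 13366 and 13914.5 UFIs. The striosome-high share was 12.5, 18, 21.8, 18.1, 34.2, 21.4 and 21.2% of D1 nuclei by library, a mean of 21.0 ± 6.65% (n = 7), and rested on 3 to 22 nuclei a library.

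Genes outside the split moved with it. Of 3915 genes tested, 198 (5.06%) were higher and 176 (4.5%) lower in striosome-high nuclei. Of 6 other striosome genes tested, 5 were higher (Tshz1, Bach2, Lypd1, Khdrbs3 and Kcnip1), with a median log2 fold change of 1.56. Pdyn, at 0.75, was not called (edgeR, adjusted p = 0.0694). Of 5 tested matrix genes, 4 were lower: Sgk1 stood at 127 ± 50.7 against 378 ± 42.7 CPM and Calb1, the calcium buffer calbindin, at 19.6 ± 17.5 against 53.7 ± 14.2 CPM, beside Epha4 (log2 fold change -0.98) and Rasgrp2 (-0.93). Gda was not called (log2 fold change 0.19; edgeR, adjusted p = 0.622). Most of these genes, Kcnip1 and Calb1 among them, would not have passed the filter in every library of their lower class, so the counts and the median are a description. Genes known of eccentric medium spiny neurons moved with the same split, as 3 of 4 tested were higher (Otof, in 5 of 7 libraries, Adarb2 and Tshz1, which is on both lists), with a median log2 fold change of 1.66, and the part of those neurons in the split was not tested. Of other cell type markers, the excitatory gene Cux2 was higher (log2 fold change 1.02) and the oligodendrocyte gene Mbp lower (-0.68, in edgeR but not DESeq2). Of 2 astrocyte markers, 0 were called.

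Alk, a receptor tyrosine kinase, showed the largest rise among named genes. It stood at 486, 121, 101, 464, 370, 413 and 291 CPM in striosome-high and at 24.1, 9.51, 12.2, 12.6, 12.4, 23.5 and 4.75 CPM in striosome-low nuclei. The classes did not overlap, and the log2 fold change was 4.44 ± 0.25 (edgeR, adjusted p = 5.43e-10). Pcdh15, a protocadherin, stood at 1076 ± 558 against 102 ± 29.5 CPM and Necab1, a calcium-binding protein, at 336 ± 135 against 28.4 ± 11.8 CPM. Ebf1, the direct pathway factor, was lower, at 138 ± 65.7 against 453 ± 73.5 CPM, and Foxp2 higher, at 1448 ± 565 against 798 ± 82.6 CPM, in 6 of 7 libraries (509 against 711 CPM in frozen without preindex 2). Ptprm, the 1 gene called of 3 tested indirect pathway genes, was higher, at 298 ± 128 against 54.3 ± 30.4 CPM. Ptprm was among the genes picked for the same sign in all 7 libraries. Glutamate receptors were mostly lower where called (6 lower and 1 higher of 18). Il1rapl2, a synaptic adhesion gene, fell by 2.38 on the log2 scale.

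Eya1 gave another split, which is a description because Eya1 is part of the rule. It was seen in 149 of 459 D1 nuclei, 28.9 to 38.0% by library. Median depth was 14649 UFIs with and 13724.5 without an Eya1 UFI. Nuclei without one had to reach the minimum through Drd1 and Tac1 alone. Of 5580 genes, 54 (0.968%) were higher and 43 (0.771%) lower in nuclei with Eya1 at the limit used above, and nothing is read from these counts. Striosome-high nuclei made up 6.04% of those with and 28.1% of those without Eya1, a difference that was not tested.

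Alk stood at 12.6 ± 10.4 CPM in nuclei with Eya1 and at 108 ± 36.1 CPM without it, a log2 fold change of -3.17 ± 0.26. The striosome genes Sema5b, Oprm1 and Kremen1 had log2 fold changes of -1.47, -1.57 and -0.16. Cnr1 stood at 475 ± 114 against 251 ± 74.4 CPM, above the value without Eya1 in 7 of 7 libraries (log2 fold change 0.95 ± 0.13). Cnr1 was among the genes picked for the same sign in all libraries, so that agreement follows from the choice. Entpd1, an enzyme that breaks down extracellular ATP, stood at 67.7 ± 24.9 against 24.7 ± 8.04 CPM and the matrix gene Sgk1 at 374 ± 55.7 against 281 ± 41.7 CPM. Drd3 stood at 21.6 ± 15.9 against 56.5 ± 21.9 CPM. The 97 genes past the limit numbered 39 without fresh without preindex 2 and 59 without frozen preindexed 2.

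**Figure D3:**
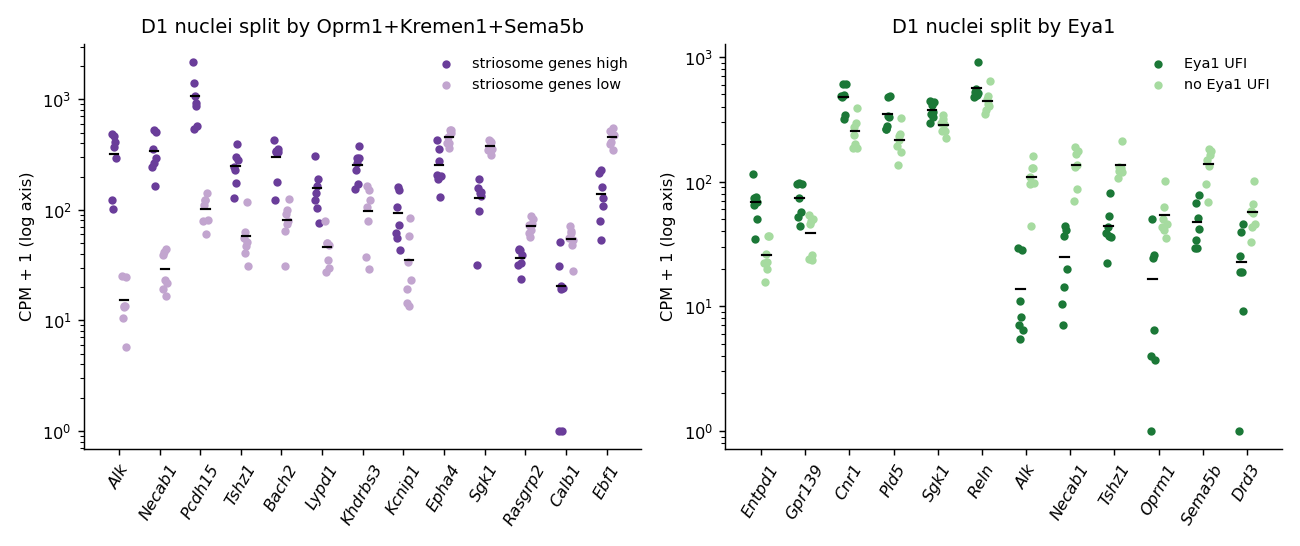
CPM plus 1 on a log axis in D1 nuclei split by striosome gene level (left) and by the presence of an Eya1 UFI (right), a point for each of 7 libraries and a bar at the mean. Alk is higher in striosome-high nuclei and lower in nuclei with Eya1, without overlap in either split.

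The study prepared brain nuclei from frozen and fresh tissue and with 2 kinds of RT primer. D1 nuclei were found in every library: 24, 50, 101, 105, 38, 42 and 99 nuclei, or 3.43, 6.25, 4.39, 5.26, 3.8, 3.23 and 3.19% of nuclei. The exact 95% binomial interval was 2.21 to 5.06% for the library with the fewest and 4.67 to 8.16% for that with the highest share, and these intervals cover counting error only. D1 nuclei numbered 0.75, 1.67, 0.711, 0.897, 1.19, 0.977 and 0.631 per D2 nucleus, so frozen without preindex 2 stood highest in both measures.

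The D1 share was 4.83 ± 1.2% in frozen (n = 4) and 3.41 ± 0.340% in fresh libraries (n = 3), a difference of 1.42 percentage points (two-sided exact permutation test over 35 splits, p = 0.114, smallest p possible 0.0286). It was 4.28 ± 1.04% with the preindex (n = 3) and 4.18 ± 1.40% without (n = 4; exact permutation test, p = 0.971). With every nucleus thinned to 3000 UFIs the rule kept fewer nuclei, and the frozen and fresh shares were 0.796 and 0.649% (exact permutation test, p = 0.543). Neither difference in share passed the test. As a share of Rgs9-high nuclei the storage difference turned to -1.21 percentage points (exact permutation test, p = 0.857) and the primer difference to -11.8 (exact permutation test, p = 0.114). Genes seen in the median D1 nucleus at 3000 UFIs were 1422.5, 1458.5, 1396, 1410, 1460.5, 1486 and 1389. The mean was 1398 ± 10.7 with the preindex (n = 3) and 1457 ± 26.1 without (n = 4; exact permutation test, p = 0.0571), and all preindexed libraries lay below all others. By storage the means were 1422 ± 26.8 frozen (n = 4) and 1445 ± 50.3 fresh (n = 3; exact permutation test, p = 0.429).

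**Figure D4:**
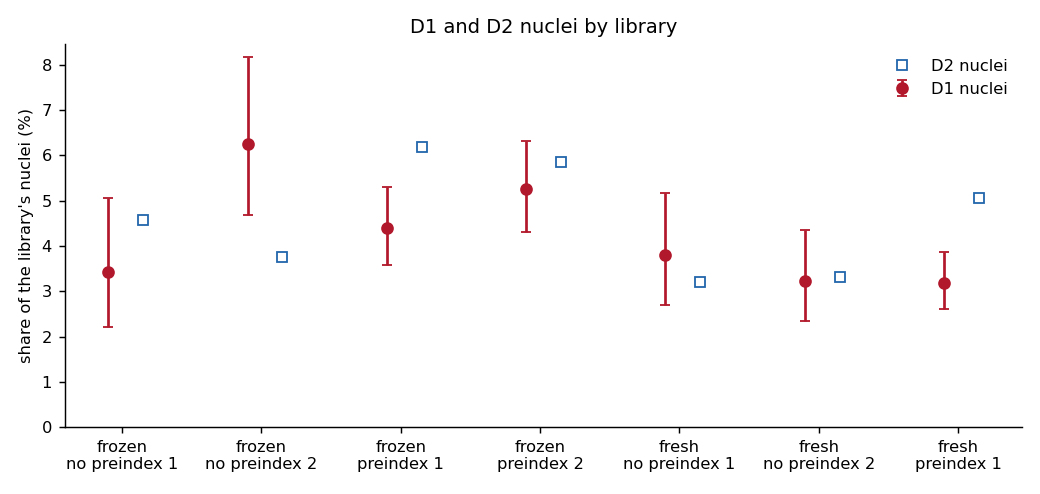
Percent of nuclei by the D1 rule (circles, with exact 95% binomial intervals) and by the D2 rule (open squares) in each of 7 libraries. The D1 share lies between 3.19 and 6.25%, and frozen without preindex 2 is highest.

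Within D1 nuclei, several mitochondrial transcripts were higher in frozen tissue. Of 9374 genes tested, 22 (0.235%) differed between frozen and fresh libraries by edgeR's quasi-likelihood test with storage and primer in the model, 12 higher and 10 lower in frozen tissue. Of 15 mitochondrial genes tested, a group singled out after its values were seen, 6 were higher in frozen libraries. Of the 15, 10 had a log2 fold change above 0, and the lowest stood at -1.74. mt-Nd1, a complex I subunit, stood at 160, 152, 113 and 111 CPM in frozen and at 70.2, 44.2 and 68.1 CPM in fresh libraries, a log2 fold change of 1.15 ± 0.19 (edgeR, adjusted p = 0.0114). mt-Co1, of complex IV, stood at 207, 234, 204 and 217 against 106, 80.6 and 155 CPM, and the ribosomal RNA mt-Rnr1 at 3865 ± 572 against 2016 ± 632 CPM. The groups did not overlap for any of these genes, which was a condition for naming them. The same held for 5.64% of all genes tested.

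All mitochondrial transcripts together came to 8740, 7287, 7647 and 7232 CPM in frozen and 3731, 2884 and 6073 CPM in fresh D1 nuclei. In Rgs9-low nuclei they came to 12480, 10913, 7835 and 7858 against 3914, 3746 and 6030 CPM, so both kinds of nuclei held more in frozen tissue. The storage difference in D1 nuclei minus that in Rgs9-low nuclei had a median of -0.21 (log2) over 16 mitochondrial genes. Sik3, a salt-inducible kinase, was lower in frozen D1 nuclei, at 387, 411, 408 and 414 against 613, 522 and 700 CPM, and Ryr1, a calcium release channel, stood at 94.3 ± 11.8 against 161 ± 17.7 CPM. Of the genes shared by medium spiny neurons, 0 of 20 were called by edgeR and 0 by DESeq2, with 4 at an unadjusted p under 0.05 in edgeR. Of the direct pathway genes these counts were 0 of 8, 0 and 1, and at backgrounds of 0.235% called and 6.5% at an unadjusted p under 0.05 nothing is read from them for either list. Grik1 alone among the listed genes was called, at 46.2 ± 27.2 against 18.1 ± 8.87 CPM (edgeR, adjusted p = 0.0411), and its groups overlapped. DESeq2 called 0 of the 22 glutamate receptor genes it tested, Grik1 included. The number of calls moved with single libraries, to 5 without frozen without preindex 2, where 9 of the 10 named genes lost their call, and to 11 without fresh preindexed. With primer left out of the model there were 0 calls by edgeR, with 418 genes at an unadjusted p under 0.05, and 9 by DESeq2 with primer kept.

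Between primers, 91 of 9374 genes (0.971%) differed in D1 nuclei, 53 higher and 38 lower with the preindex. Fam19a1, a secreted neuronal peptide also named Tafa1, stood at 231, 384, 133 and 263 CPM without and at 20.3, 31.8 and 50.4 CPM with the preindex, a log2 fold change of -2.87 ± 0.29 (edgeR, adjusted p = 8.15e-06). In Rgs9-low nuclei it stood between 1133 and 1727 CPM with both primers. Cd44, a matrix receptor, stood at 18.2 ± 8.18 with against 81.9 ± 10.5 CPM without the preindex. Rn7sk, a small nuclear RNA that lacks a poly(A) tail, stood at 312, 309 and 319 CPM with and at 835, 830, 755 and 861 CPM without it, and in Rgs9-low nuclei at 447 to 462 against 932 to 1036 CPM. Il1rapl2 stood at 491 ± 235 against 157 ± 73.9 CPM, with 762 CPM in fresh preindexed and 360 and 351 CPM in the frozen preindexed libraries. Its call was lost without fresh preindexed, with DESeq2 and with equal numbers of nuclei per library.

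Cerebellar genes moved with the primer in D1 nuclei too. Fat2 stood at 30.5, 31.9, 6.16 and 9.28 CPM without the preindex and at 0.78, 0 and 0 CPM with it, and the summed cerebellar list at 40.7, 44.6, 13.5 and 17.1 against 0.8, 0 and 0 CPM. The part of RNA from other nuclei in the primer differences was not tested. Of the 23 cascade genes, 4 were higher with the preindex (Prkar2b, Pde10a, Pde7b and Rgs7bp) and Pde4d was lower. Pde10a stood at 6445 ± 590 against 5387 ± 370 CPM. Of the direct pathway genes, 0 of 8 were called by edgeR, with 1 at an unadjusted p under 0.05, a share near the 10.9% of all genes tested, and 0 of the 3 that DESeq2 tested. Without fresh preindexed 31 genes were called, and without frozen without preindex 2, 32.

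**Figure D5:**
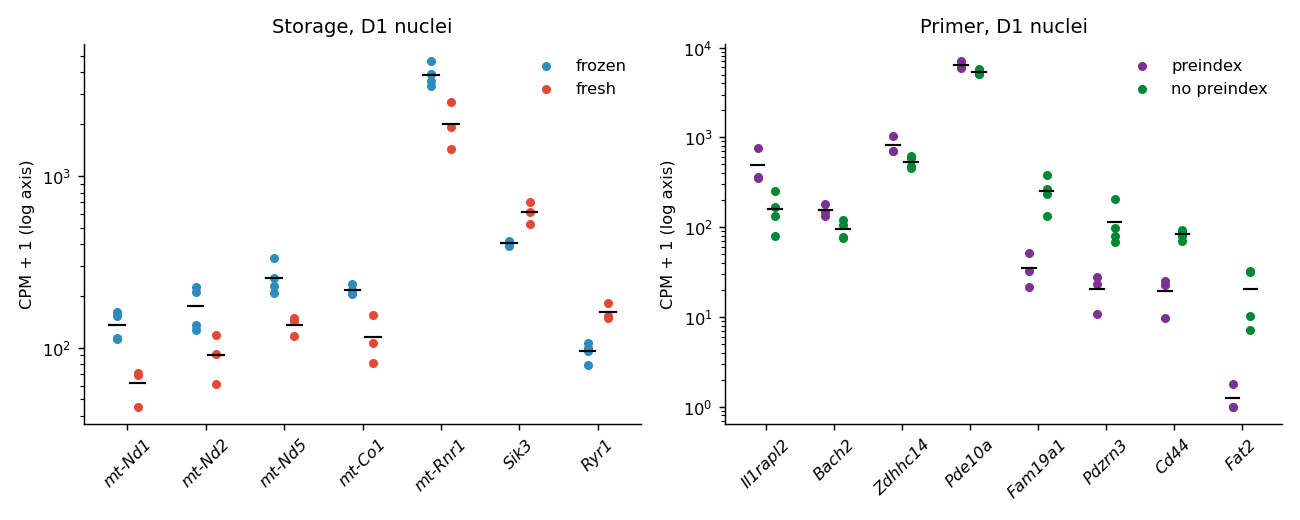
CPM plus 1 on a log axis in D1 nuclei of each library, for genes named between frozen and fresh tissue (left) and between preindexed and other primers (right). mt-Nd1 and mt-Co1 are higher in the 4 frozen libraries, and Fam19a1, Cd44 and Fat2 are lower in the 3 preindexed libraries, without overlap.

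Whether storage or primer acted on D1 nuclei as on Rgs9-low nuclei was tested with an interaction term. For storage 13 of 12169 genes (0.107%) and for primer 118 genes (0.97%) differed between the types in edgeR. Reln, a secreted matrix protein, stood at 390, 412, 481 and 460 CPM in frozen and 484, 446 and 723 CPM in fresh D1 nuclei, and at 171, 226, 142 and 135 against 163, 166 and 129 CPM in Rgs9-low nuclei. Its adjusted p in edgeR was 0.0466 and ran from 0.00791 to 0.299 over the alternatives, with the call lost with upper quartile scaling and without each of 5 libraries (frozen without preindex 2, both frozen preindexed, fresh without preindex 1 and fresh preindexed). For primer, Grm4, a glutamate receptor that couples to Gi, stood at 191 to 267 CPM in D1 nuclei of all libraries, whereas in Rgs9-low nuclei it stood at 138, 148, 110 and 117 CPM without and 46.6, 49.5 and 56.9 CPM with the preindex. Ebf1 likewise stood at 252 to 394 CPM in D1 nuclei throughout, and at 204, 151, 82.8 and 78.0 against 40.8, 53.1 and 58.0 CPM in Rgs9-low nuclei. For Grm4 and Ebf1 the level in D1 nuclei varied less with the primer than that in Rgs9-low nuclei, while for Fam19a1, given above, it varied more. Cerebellar genes, as given above, went with the primer in the same libraries.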

How the data were processed

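The files hold UFI counts per gene and nucleus, deposited by the authors without normalization. Per their methods, the authors trimmed poly(A) with cutadapt, chose barcodes by a read cutoff with UMI-tools, aligned with STAR, assigned unique reads to whole genes, introns included, with featureCounts and counted UFIs with UMI-tools. The submitters' processing notes name the builds GRCm38, mm10 and GRCh38. No further nuclei were removed here.

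Members, gene lists and tests were chosen with earlier results of these data known. UFIs were summed per library and class and tested with edgeR 4.0.16 (R 4.3.3; TMM scaling, filterByExpr, quasi-likelihood test, Benjamini-Hochberg adjustment over all genes). Paired comparisons had the library as a block, and storage and primer were fitted together. DESeq2 1.42.0 was an alternative. Shares were compared by exact permutation over libraries. CPM are UFIs scaled to a total of 1000000 over the summed nuclei. Genes named outside the lists had the largest called changes, at least 50 CPM in the higher group and, except for interactions, the same sign in all libraries or no overlap. On simulated data, 177 to 200 of 200 genes changed by 1.5 (log2) were recovered across the 6 comparisons, with 4.06 to 9.17% false calls. Only the Eya1 split kept false calls under the limit set by an adjusted p of 0.05. Storage had the most (9.17%), followed by D1 against D2 (7.83%). Smaller changes were not simulated. Some genes are not reported here.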

Additional observations from a re-analysis of the deposited data

Results flagged for a closer look

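Values per library were examined in 106 groups of 4 or 7 libraries, and 7 groups held a library far from the others. Chance gives about 1 group in 20. The groups held D1 shares, depths, genes per nucleus, CPM of named genes or log2 ratios of CPM plus 1. The 7 flagged groups, given here, were all log2 ratios over 7 libraries. Between D1 and D2 nuclei, Cntnap3 was at 5.27 in fresh without preindex 1 (others 3.50 to 4.26). In frozen without preindex 1, which has 24 D1 nuclei, Oprd1 was at -5.94 (others -4.49 to -3.45) and Plxdc1 at -0.67 (others -3.34 to -2.51). In the same library, Ptn was at -5.94 in the striosome split (others -2.49 to -0.79) and Drd3 at -5.04 in the Eya1 split (others -2.33 to -0.75). In frozen without preindex 2, Adamts2 was at 2.39 (others 0.48 to 1.25) and Chrna7 at 2.02 (others 0.13 to 0.93) in the Eya1 split.

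The storage difference in D1 nuclei differed from that in Rgs9-low nuclei for the genes named here, each by edgeR's interaction term. As differences of log2 fold changes, D1 minus Rgs9-low, these were Megf11 at 1.58, Col25a1 at 0.84, Neat1 at -3.33, Aff1 at -1.67, Ubash3b at -1.13, Svil at -1.07, Ppp1r16b at -0.86, Itpr1 at -0.85, Gramd1b at -0.78 and Reln at -0.64. Of these 10 genes, 9 lost the call in at least 1 alternative, and Aff1 kept it in all. Neat1 stood at 157 and 142 CPM in the Rgs9-low nuclei of the kidney-rich frozen preindexed libraries and at most 18.9 CPM in the others.

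The primer difference was higher in D1 than in Rgs9-low nuclei for Gpr149 at 2.03, Meis1 at 1.79, 6330411D24Rik at 1.75, Ebf1 at 1.54, Ryr1 at 1.46, Il1rapl2 at 1.32, Syt2 at 1.18, Grm4 at 1.17, Vat1l at 1.14 and Astn2 at 1.08. It was lower for Ndrg1 at -4.49, Timp3 at -4.25, Pdzrn3 at -3.20, Fam19a1 at -2.95, Ptpn3 at -2.28, Tns1 at -2.14, Phactr2 at -1.99, Glis1 at -1.97, Tcf7l2 at -1.91 and Ghr at -1.88. Of these 20 genes, 14 lost the call in at least 1 alternative. Meis1, Ebf1, Ryr1, Grm4, Pdzrn3 and Fam19a1 kept it in all. Ndrg1 stood at 250 and 218 CPM in the Rgs9-low nuclei of those kidney-rich libraries and at most 12.4 CPM in the others. Gpr149 stood at 104 and 190 CPM in the Rgs9-low nuclei of frozen without preindex 2 and fresh without preindex 2, and at most 11.6 CPM in the other libraries.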

How the results depend on the processing

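Of the alternatives to the comparisons, 118 gave a like value, 26 moved it and 7 reversed it, and of those to named genes 1509 kept the call and 178 lost it. Named genes of D1 against D2 nuclei and of the striosome split kept their call and direction under every alternative that tested them (Kirrel, A730060N03Rik and Raver2 of the striosome split were not tested in some), as did 18 of 20 against Rgs9-low nuclei (the others were the kidney-rich genes Lrp2 and Dab2), whereas a call was lost in at least 1 for all 10 named for storage, 6 of 10 for primer, 9 of 10 and 14 of 20 for the storage and primer interactions and 7 of 20 for the Eya1 split. Storage calls went from 22 to 9 with DESeq2, 84 without the filter on low counts, 6 with a ratio of 4, 0 with primer left out and 2 with equal numbers of nuclei per library (chosen after seeing the data). Primer calls went from 91 to 263 without the filter, 55 with a ratio of 4, 37 with storage left out and 13 with equal numbers. D1 against D2 calls went from 417 to 256 without the library block. Without the filter the storage interaction went from 13 to 70, the primer interaction from 118 to 268 and the Eya1 split from 97 to 211.

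Leaving out 1 library at a time gave 5 to 27 calls for storage, 31 to 127 for primer, 328 to 391 for D1 against D2, 2115 to 2483 (2287 with all libraries) against Rgs9-low nuclei, 7 to 26 and 29 to 208 for the storage and primer interactions, 273 to 354 (374 with all libraries) for the striosome split and 39 to 123 for the Eya1 split. The storage interaction had 8 calls without frozen preindexed 2, 7 without fresh without preindex 1 and 26 without fresh without preindex 2. The primer interaction had 29 without frozen without preindex 2, 64 and 62 without frozen preindexed 1 or 2 and 208 without fresh preindexed.

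The storage difference in D1 share was 0.95 to 1.89 percentage points without 1 library and reversed to -1.21 as a share of Rgs9-high nuclei. The primer difference, 0.103, ran from -0.385 to 0.794 without 1 library, and was -0.0907 without Eya1 in the rule and -11.8 as a share of Rgs9-high nuclei. Genes per nucleus differed by -51.5 to -3.00 (storage) and -70 to -48.8 (primer).

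With a replicate block, 17 storage and 81 primer genes were called. Replicate differences of the same number correlated at 0.0055, -0.0114 and 0.0338 between groups, so the numbers were not taken as pairs. Depth limits the rule itself, which kept fewer nuclei at 3000 UFIs.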

Other observations

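Genes known for their place in the striatum were higher in D1 than in Rgs9-low nuclei for 4 of 7 tested (Cnr1, Gpr155, Reln and Wfs1), where 5.57% of all genes tested were higher. Gpr155, a membrane protein, stood at 113 ± 14.8 against 34.1 ± 3.76 CPM, and Reln at 485 ± 111 against 162 ± 32.9 CPM. Within D1 nuclei, Reln stood at 562 ± 152 CPM with and 444 ± 96.9 CPM without an Eya1 UFI, and Wfs1, a protein of the endoplasmic reticulum, at 33.6 ± 16.5 against 69.5 ± 35.2 CPM. The matrix gene Sgk1, a kinase, stood at 313 ± 27.7 CPM in all D1 nuclei against 106 ± 9 CPM in Rgs9-low nuclei.

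Of the neuropeptide precursors, Npy and Cck stood at 0.621 ± 0.479 and 1.64 ± 1.11 CPM in D1 nuclei against 6.68 ± 1.75 and 16 ± 4.03 CPM in Rgs9-low nuclei. The nuclear RNA Meg3 stood at 1934 ± 140 CPM in D1, 1811 ± 67.4 CPM in D2 and 2927 ± 194 CPM in Rgs9-low nuclei. The immediate early gene Egr1 stood at 35 ± 12.9 against 19.2 ± 6.62 CPM in D1 and Rgs9-low nuclei. Of 7 heat shock genes, 0 were called between D1 and Rgs9-low nuclei by edgeR and 0 by DESeq2, with 1 at an unadjusted p under 0.05 in edgeR, where 48.1% of all genes tested had one. With 5.57% of all genes higher and 13.2% lower, this count says little of so short a list.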
